A study of Mus musculus with 6 samples.

Results

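The S100 genes described here were the 10 rows of the deposited hippocampal count table whose gene name was S100a1, S100a4, S100a6, S100a8, S100a9, S100a10, S100a11, S100a13, S100a16 or S100b, out of 41386 genes in the table. S100 proteins are small calcium-binding proteins with a pair of EF-hand loops, mostly dimers that change shape when they bind calcium and then hold other proteins. Some act inside the cell on annexins, the cytoskeleton and kinases. Others are released by damaged or activated cells and act as alarm signals through Toll-like receptor 4 and the receptor RAGE. In the brain S100B is a classical astrocyte protein, used as a blood marker of brain injury, whereas S100A8 and S100A9 are the abundant calcium-binding proteins of neutrophils and monocytes.

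RNA was sequenced from hippocampi of wild type C57BL/6 mice 56 days old, in 2 groups of 3 libraries. In the ischemia/reperfusion (I/R) group the middle cerebral artery was blocked by a filament (MCAO) for 1.5 h and blood flow was then restored for 24 h; the sham group had the same surgery without the filament. Male mice and the ipsilateral hippocampus were used per the study's methods, and each library pooled hippocampi of several animals, so the spread given below is between pools. The question was how the hippocampal transcriptome differed between I/R and sham.

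Libraries held 37493042 to 44788547 counted reads. Levels of 1 gene are given as counts and as CPM, counts relative to a library size that was TMM-scaled, that is, corrected for differences in RNA make-up. Levels of different genes are compared only as FPKM, which divides by gene length. Neuronal marker genes of the tissue were present in all 6 libraries, and Prox1, which marks dentate granule cells, had 3155 to 5802 counts. The summed level of 7 neuronal markers ranged from 9455 to 9527 CPM in sham. I/R replicates 1, 2 and 3 had 1564, 3581 and 4056 CPM, so replicate 1 stood lowest. Choroid plexus markers split the libraries another way, since their sum was 33.1 CPM in I/R replicate 3 and 36.5 CPM in sham replicate 1 but at least 1606 CPM in each of the other 4 libraries.

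Of the 10 S100 genes, 9 had enough counts to be tested and S100a4 did not. With edgeR's quasi-likelihood test, a gene was called at a Benjamini-Hochberg adjusted p under 0.05 over 18569 genes and a fold change over 1.2. By this rule 8 of the 9 S100 genes tested were called. All 8 rose in I/R, and 0 fell. For comparison, 41.8% of all genes tested were called, 21.8% were called higher and 3702 genes were called lower. The 3 I/R libraries lay above the 3 sham libraries for 8 of the 9 tested S100 genes, against 29.3% of all genes tested. The median log2 fold change of the 9 genes was 2.38, against 0.03 for all genes. By their estimates, 5 of the 9 rose more than 5-fold, as did 3.38% of all genes tested. S100a8 and S100a9 had enough counts to be tested only through the I/R libraries, so they had little scope to be called lower. A minimum of 10 counts in every library left both out. There 6 of 7 S100 genes were called, against 7247 of all 16421 genes tested. In bulk tissue a change in the number of cells that express a gene cannot be told apart from a change in RNA per cell. Without I/R replicate 3 and sham replicate 1, the 2 libraries with little choroid plexus RNA, 7 of 9 were called and S100a1 was not. In that fit 5255 of all 18816 genes tested were called.

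**Figure D1:**
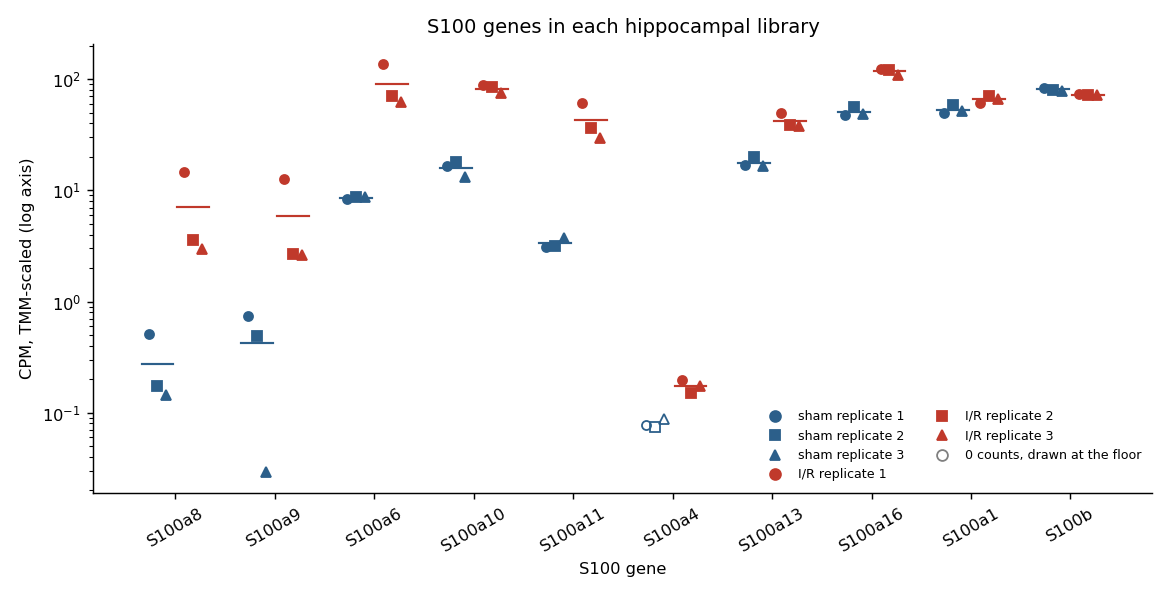
Level of each S100 gene in each library as TMM-scaled CPM on a log axis, with 1 symbol per library and a bar at the mean of the 3 libraries of a group; open symbols mark 0 counts drawn at the floor of 3 counts. Red I/R symbols lie above blue sham symbols for every gene but S100b, and the spread within I/R is widest for S100a8 and S100a9, where I/R replicate 1 stands apart.

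S100a8 and S100a9 encode the subunits of calprotectin, a metal-binding antimicrobial complex and a ligand of Toll-like receptor 4. They lie next to each other in the table's annotation of the BALB/cJ assembly, S100a8 at chr3:87924097-87925156 on the plus strand and S100a9 at chr3:87947511-87950891 on the minus strand. Their promoter windows are shown because both members of the pair carry the same kinds of short match. The windows run from 250 bases before to 50 after the start site in RefSeq on GRCm38.p6, at chr3:90668821-90669120 (plus strand) and chr3:90695672-90695971 (minus strand), and capitals mark C/EBP-type letters TTNNGNAA and the letters TATAAA.
S100a8: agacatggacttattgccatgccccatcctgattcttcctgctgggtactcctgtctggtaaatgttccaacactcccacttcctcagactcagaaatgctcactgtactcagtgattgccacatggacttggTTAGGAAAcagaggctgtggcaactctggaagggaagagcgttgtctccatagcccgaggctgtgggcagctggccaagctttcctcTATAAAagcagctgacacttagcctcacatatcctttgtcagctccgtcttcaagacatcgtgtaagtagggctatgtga
S100a9: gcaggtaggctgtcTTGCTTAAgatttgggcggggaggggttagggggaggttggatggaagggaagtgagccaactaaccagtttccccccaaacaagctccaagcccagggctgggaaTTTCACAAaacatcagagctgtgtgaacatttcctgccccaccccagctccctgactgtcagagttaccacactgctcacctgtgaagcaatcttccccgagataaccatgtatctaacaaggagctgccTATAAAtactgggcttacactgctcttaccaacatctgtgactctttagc
On either strand, TTNNGNAA lay at position -117 from the S100a8 start and at -236 and -130 from the S100a9 start, and 40.7% of 32851 promoter windows of this length held it. TATAAA was found in S100a8, S100a9 and S100a4 of the 9 S100 genes with a window, and in 13.6% of all windows. It lay at -30 in S100a8 and -31 in S100a4. In S100a9 it lay at position 1, at the start site and not before it. The letters GGGCGG, not in capitals, were in S100a9, S100a11 and S100a16 and in 35.7% of all windows. These are matches of letters and not measured binding.

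S100a8 had 20, 7 and 5 counts in the sham libraries, against 671, 143 and 118 after I/R. The groups did not overlap, and I/R replicate 1 was far above the other I/R libraries. The gene rose 25.2-fold (95% interval 6.98 to 91.0), which is 4.66 on the log2 scale (SE 0.80, adjusted p = 0.00329 by edgeR). S100a9 had 29, 20 and 1 counts in the sham libraries, against 571, 107 and 104 after I/R. It rose 13.8-fold (log2 3.78, SE 0.90, edgeR adjusted p = 0.0118). Both intervals were wide, since the mean was 7.09 ± 6.63 CPM (SD, n = 3) in I/R for S100a8 and 5.94 ± 5.72 CPM for S100a9. I/R replicate 1 was 4.52 times the mean of the other I/R libraries for S100a8 and 4.75 times for S100a9, and without it the log2 fold changes were 3.53 and 2.61, with both genes still called. S100a9 was not called without sham replicate 2 (edgeR adjusted p = 0.0538).

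The pair moved together between the I/R libraries. The FPKM ratio of S100a8 to S100a9 was 1.23, 1.40 and 1.19 after I/R. It was 0.723, 0.367 and 5.24 in sham, where the last value rests on 1 count of S100a9. Neutrophil markers as a sum were also highest in I/R replicate 1, though not every marker shared this pattern. Their summed level, over 13 genes, was 20.8 CPM in I/R replicate 1, 8.0 and 8.07 CPM in the other I/R libraries and 5.98 to 6.19 CPM in sham. Of the 6 that could be tested, 3 rose, namely Retnlg, the matrix protease Mmp8 and haptoglobin (Hp), and 0 fell. In sham these had 8, 1 and 1, 4, 0 and 1, and 4, 3 and 4 counts. They could thus be tested only through the I/R libraries and called only higher, so the direction of these 3 calls carries little information. Csf3r, Mmp9 and Mpo were not called. Csf3r, the highest of the list in sham, had 162, 146 and 134 counts there, against 369, 83 and 155 after I/R. Cxcr2, the chemokine receptor of neutrophils, had 87, 10 and 9 counts in I/R and 0 in every sham library. The granule and surface genes Ly6g (1, 0 and 0 counts), Ngp (5, 0 and 0) and Elane (1, 1 and 1) were at or near 0 in I/R, with 0 counts in sham. The part of neutrophil RNA in the rise of S100a8 and S100a9 was not tested.

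S100a10, S100a11 and S100a6 encode the S100 proteins that bind annexins, which link calcium to membrane repair and traffic. S100A10 is unusual in having lost calcium binding, and it holds annexin A2 in a complex at the plasma membrane. S100a10 had 643, 726 and 455 counts in the sham libraries, against 4003, 3376 and 2986 after I/R. All 3 I/R libraries were alike and far above sham, at 82.3 ± 6.88 CPM against 15.8 ± 2.38 CPM (SD, n = 3). The rise was 5.19-fold (log2 2.38, SE 0.13, edgeR adjusted p = 0.000164). This was the smallest adjusted p among the S100 genes.

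S100a11, an annexin A1 partner with a role in membrane repair, had 122, 129 and 129 counts in the sham libraries, against 2794, 1466 and 1178 after I/R. I/R replicate 1 was highest, and the sham libraries lay close together. It rose 12.7-fold (log2 3.67, SE 0.29, edgeR adjusted p = 0.000280). In the GENCODE M21 transcripts, 41.1% of the 50-base stretches of S100a11 were shared with the pseudogenes Gm12854, Gm29240 and Gm7665, so its count is uncertain to the extent that reads were split or dropped. S100a6, calcyclin, which also binds the calcyclin-binding protein Cacybp, had 324, 356 and 297 counts in the sham libraries, against 6183, 2844 and 2502 after I/R. Its rise was 10.5-fold (log2 3.39, SE 0.29, edgeR adjusted p = 0.000353), and I/R replicate 1 was 2.03 times the mean of the other I/R libraries. For S100a10 the same ratio was 1.11, so the genes of the family did not share 1 spread.

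The promoter window of S100a11 (GRCm38.p6, chr3:93520246-93520545, plus strand) is shown because it held AP-1-type letters more than once.
S100a11: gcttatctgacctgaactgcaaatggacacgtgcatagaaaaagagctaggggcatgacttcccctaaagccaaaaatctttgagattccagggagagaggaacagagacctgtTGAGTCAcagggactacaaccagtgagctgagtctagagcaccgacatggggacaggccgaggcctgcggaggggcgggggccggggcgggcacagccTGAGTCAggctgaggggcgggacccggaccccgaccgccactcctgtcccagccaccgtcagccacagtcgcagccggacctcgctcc
Capitals mark TGANTCA, the AP-1-type letters searched on both strands, at positions -136 and -38 from the start site. S100a16 held 1 match, at -192 in 1 of its windows, and the other 7 S100 genes with a window held none, against 7.81% of all promoter windows with a match. STAT-type letters TTCNNNGAA (8.3% of all windows), the NF-kappa B motif (8.46%) and the CArG box (1.63%) had 0 matches among the S100 genes, which says only that those letters are not in these windows.

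**Figure D2:**
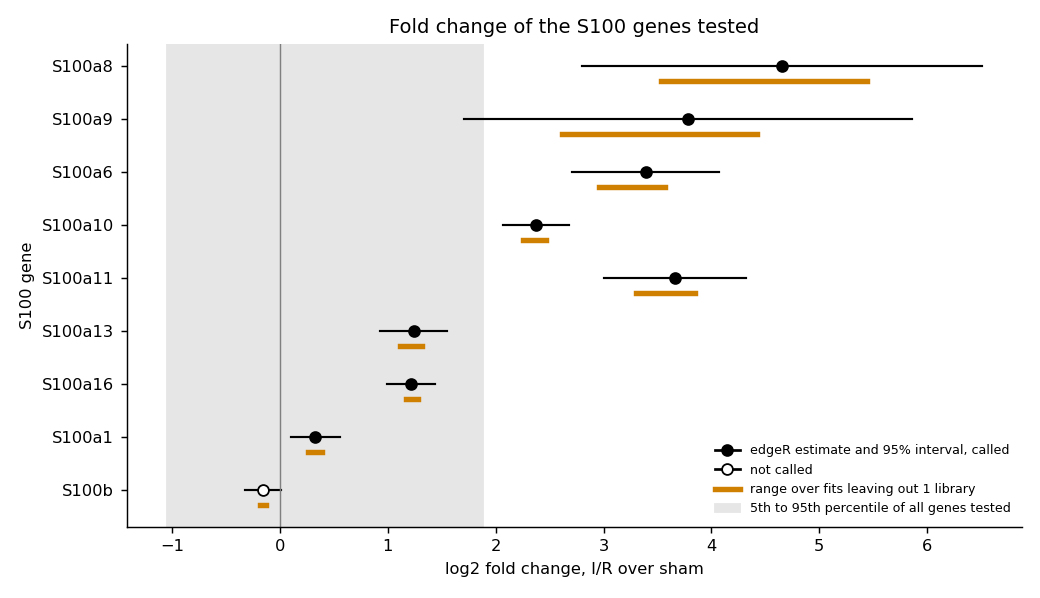
Log2 fold change of I/R over sham for the 9 tested S100 genes, with edgeR's 95% interval (black), the range over fits that leave out 1 library each (orange) and the 5th to 95th percentile of all genes tested, -1.04 to 1.88 (grey). S100a8, S100a9, S100a6, S100a11 and S100a10 lie right of the grey band by their estimates, and S100b, the open circle, lies just left of 0.

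Anxa2, the annexin that S100A10 binds, had 480, 553 and 387 counts in the sham libraries, against 10472, 5715 and 4288 after I/R. Its log2 fold change was 3.69 (SE 0.28, edgeR adjusted p = 0.000269), larger than that of S100a10. In FPKM, S100a10 stood at 2.57, 2.51 and 2.25 times Anxa2 in the sham libraries, but at 0.732, 1.13 and 1.33 times after I/R. The ratio was therefore lower in every I/R library than in every sham library, with means of 1.07 ± 0.306 and 2.44 ± 0.168 (SD, n = 3). Listed lengths were 685 bases for S100a10 and 2280 for Anxa2, whereas the authors' length for S100a10 was 591. Which of these genes stood higher in a library can therefore depend on the length used. The difference between the groups cannot, since each length was constant over libraries. An exact two-sided permutation test of 3 against 3 gave p = 0.1, the smallest it can give. S100a11 moved the other way against S100a10, from 0.219, 0.206 and 0.328 times its FPKM in sham to 0.807, 0.502 and 0.456 times in I/R.

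Annexins as a list had 10 tested genes, of which 7 rose and 1 fell, with a median log2 fold change of 1.35. Of all genes tested, 41.8% were called and 21.8% were called higher. Beside Anxa2 the largest rises were in Anxa1 (2.33), which also was among the 5 genes nearest to S100a10 in its pattern over the libraries, and Anxa3 (2.13). Anxa6 fell by 0.47 on the log2 scale. Anxa9 (0.40) and Anxa11 (-0.20) were not called.

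The complex of S100A10 with annexin A2 is a surface site where plasminogen is turned into plasmin. Of 8 tested genes of the plasminogen system 6 rose and 1 fell, with a median log2 fold change of 1.88. All genes tested had 21.8% called higher and 41.8% called in either direction. Plaur, the urokinase receptor, had 59, 13 and 27 counts in the sham libraries, against 1978, 1307 and 840 after I/R (log2 5.21, SE 0.49, edgeR adjusted p = 0.000432). Serpinf2, the plasmin inhibitor alpha-2-antiplasmin, rose by 3.14 on the log2 scale. Plg itself, the plasminogen gene, had 0 to 2 counts in any library. Eno1, an enolase that also binds plasminogen, fell by 0.51.

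S100a4 encodes metastasin, a protein of motile cells that binds non-muscle myosin. It had 9, 6 and 7 counts in I/R and 0 in each sham library, below the count filter, so it was not tested with the others. Against the sham floor of 3 counts per library (0.0792 CPM on average), the I/R mean of 0.174 CPM was at least 2.20-fold higher. A sham level under this floor could not be seen at this depth. In GENCODE M21, 302 of the 584 exonic bases of S100a4, 51.7%, lie inside exons of the gene Gm42674 on the same strand. The table also placed Gm42674 over S100a4, with 0 counts in all 6 libraries, and its part in the low count of S100a4 was not tested. None of the other S100 genes had exonic bases inside exons of another gene.

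S100a13 and S100a1 are neighbours that point away from each other. S100A13 takes part in the release of fibroblast growth factor 1 and interleukin 1 alpha, proteins without a signal peptide, and S100A1 regulates calcium pumps and ryanodine receptors in heart and muscle. In RefSeq on GRCm38.p6 the minus-strand start of S100a1 (chromosome 3, base 90514330) and the plus-strand start of S100a13 (base 90514435) have 104 bases between them. The window of S100a13, at chr3:90514185-90514484, is shown on the plus strand with those bases in capitals. It was chosen because it holds both start sites, and yet the genes differed in size of change.
S100a1 and S100a13: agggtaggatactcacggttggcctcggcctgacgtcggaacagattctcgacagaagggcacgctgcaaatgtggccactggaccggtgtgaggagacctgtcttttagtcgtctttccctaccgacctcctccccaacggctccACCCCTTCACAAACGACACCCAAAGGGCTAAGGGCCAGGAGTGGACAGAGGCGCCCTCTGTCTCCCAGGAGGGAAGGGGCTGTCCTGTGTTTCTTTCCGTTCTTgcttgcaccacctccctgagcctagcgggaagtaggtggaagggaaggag
S100a13 had 658, 803 and 571 counts in the sham libraries, against 2239, 1561 and 1504 after I/R. Its rise of 2.36-fold (log2 1.24, SE 0.13, edgeR adjusted p = 0.000681) left the groups far apart. S100a1 had 1921, 2362 and 1774 counts in the sham libraries, against 2801, 2846 and 2664 after I/R, and the groups lay close together, at 66.4 ± 4.83 and 52.9 ± 4.62 CPM (SD, n = 3). The rise was 1.25-fold (log2 0.33, SE 0.10, edgeR adjusted p = 0.0293), and the call was lost when I/R replicate 2, I/R replicate 3, sham replicate 1 or sham replicate 3 was left out. In FPKM, S100a13 stood at 0.30, 0.298 and 0.282 times S100a1 in sham and at 0.701, 0.481 and 0.495 times in I/R, without overlap.

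S100a16, a widely expressed member that binds calcium weakly, lies in the same block at chr3:87786404-87792315 (BALB/cJ). It had 1875, 2268 and 1664 counts in the sham libraries, against 5666, 4787 and 4340 after I/R, with little spread in either group. The rise was 2.32-fold (log2 1.21, SE 0.097, edgeR adjusted p = 0.000293). S100a16 and S100a13 thus had nearly equal log2 fold changes, while S100a1, beside them in the block, changed least of the called genes.

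S100b, the astrocyte protein and the only one of the 10 on chromosome 10 (chr10:74047385-74054680, BALB/cJ), was the exception. It had 3285, 3258 and 2689 counts in the sham libraries, against 3320, 2867 and 2910 after I/R. In CPM the I/R libraries stood at 72.4 ± 0.661 and sham at 80.8 ± 3.04 (SD, n = 3), so the groups did not overlap, with I/R lower. The log2 fold change was -0.16 (SE 0.073, 95% interval -0.33 to 0.01, edgeR adjusted p = 0.121), and S100b was not called. Scaling by library size alone turned its sign, to 0.10, and moved the median of all genes from 0.03 to 0.28. Its row overlaps that of Dip2a on the opposite strand, which fell by 0.38 on the log2 scale. In GENCODE M21 the exons of S100b shared 0 bases with exons of another gene on either strand. Whether counting used strand is not stated, and the part of the overlap in the BALB/cJ annotation was not tested.

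Other astrocyte genes did not share 1 direction. Among all genes tested, for comparison with the lists here, 21.8% were called higher and 3702 of 18569 lower. Of 8 tested astrocyte markers 2 rose and 5 fell, with a summed level of 2167 to 2878 CPM in I/R and 4176 to 4488 CPM in sham. Slc1a2, the main glutamate transporter, fell by 0.96 on the log2 scale, and Slc1a3 by 0.46. All 10 reactive astrocyte genes rose, with a median of 3.71, including Gfap (2.31), Vim (3.51) and Serpina3n (3.73). S100b therefore lay closer to 0 than either list's median, -0.51 and 3.71. Oligodendrocyte markers, a further source of S100b in brain, had 2 genes higher and 3 lower of 10, at 5259 to 5999 CPM in I/R and 6398 to 7923 CPM in sham.

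The make-up of the family changed with these rises. The summed FPKM of the 10 genes was 250, 271 and 243 in the sham libraries. It reached 1075, 767 and 690 after I/R, a ratio of means of 3.31. FPKM here is scaled by library total and not by TMM. Scaling by library size alone moved the median log2 fold change of all genes from 0.03 to 0.28. This ratio is therefore larger than it would be with TMM. In sham, S100a1 made up 30.3% ± 1.2 of the sum, S100a16 23.3% ± 0.620 and S100b 19.7% ± 1.44 (SD, n = 3). In I/R, S100a16 with 19.9% ± 2.45, S100a6 with 19.6% ± 4.79 and S100a10 with 18.4% ± 2.14 had the highest shares and did not differ beyond their spread. The order within a group depends on the gene length used. With the length listed in the table, S100b (22.5% ± 1.58) passed S100a16 (18.4% ± 0.536) in sham, and the I/R shares were 18.6% for S100a10, 17.0% for S100a6 and 16.2% for S100a16. With the authors' length, S100a1 (14.2% ± 3.21) and S100a11 (10.6% ± 2.07) came next, followed by S100a13 (7.68% ± 0.369) and S100b (6.55% ± 1.16). S100a6 had been 5.32% ± 0.282 in sham and S100a11 2.37% ± 0.357. S100a8 and S100a9 stayed small, at 1.71% ± 1.30 and 1.37% ± 1.07 of the sum in I/R, and without I/R replicate 1 their shares were 0.966% and 0.747%. S100a4 was 0.0551% ± 0.00818.

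**Figure D3:**
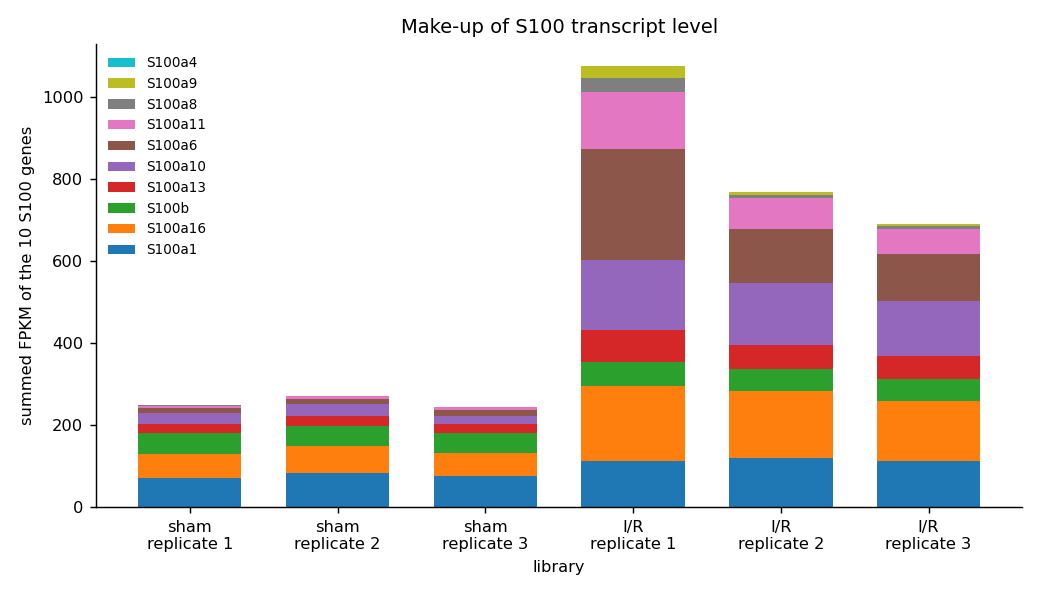
Summed FPKM of the 10 S100 genes in each library, stacked by gene and starting at 0. Sham bars (243 to 271) consist mostly of S100a1, S100a16 and S100b, whereas in I/R bars (690 to 1075) S100a10, S100a6 and S100a11 take up much of the height and S100b keeps its thickness.

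Among all genes of the table ranked by mean FPKM, S100a6 stood at rank 6967 in sham and 577 in I/R, S100a10 at 4720 and 682, and S100a11 at 9742 and 1355. S100a1 stood at 1548 in sham and 1015 in I/R. S100b hardly moved, from 2479 to 2567. The FPKM of S100a6 relative to S100b was 0.251, 0.278 and 0.281 in sham and 4.74, 2.52 and 2.19 in I/R, so S100a6 was below S100b in every sham library and above it in every I/R library.

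**Figure D4:**
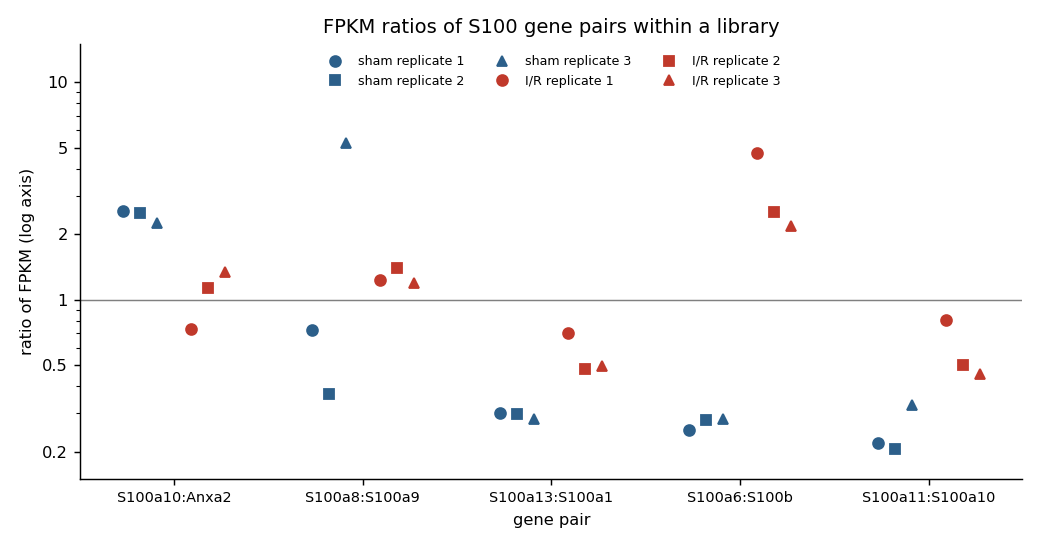
FPKM ratio within each library for 5 gene pairs, on a log axis with a line at 1. Blue symbols are sham and red symbols I/R. The height of a pair against the line depends on the gene lengths used, but the difference between its groups does not. S100a10 against Anxa2 is lower in I/R (0.732 to 1.33, against 2.25 to 2.57), the ratios of S100a13 to S100a1, S100a6 to S100b and S100a11 to S100a10 are higher, and S100a8 against S100a9 overlaps.

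Extracellular S100 proteins act through pattern recognition receptors. Of 14 genes of these receptors and their signalling 7 rose and 1 fell, with a median log2 fold change of 0.44. Against this, 41.8% of all genes tested were called and 21.8% were called higher. Cd14, a co-receptor of Toll-like receptor 4, had 171, 116 and 77 counts in the sham libraries, against 8213, 3311 and 2804 after I/R (log2 5.13, SE 0.44, edgeR adjusted p = 0.000347). Tlr4 had 51, 44 and 49 counts in the sham libraries, against 407, 245 and 185 after I/R, and rose by 2.37 on the log2 scale (edgeR adjusted p = 0.000965). Cd36 (2.11), the adaptor Myd88 (2.05) and the Tlr4 partner Ly96 (2.0) also rose. Ager, which encodes RAGE, had 22, 28 and 16 counts in the sham libraries, against 54, 35 and 8 after I/R. Its groups overlapped, and with an estimate of 0.40 on the log2 scale (SE 0.60, edgeR adjusted p = 0.625) no difference was detectable. Alcam fell by 0.48.

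Intracellular partners of S100 proteins split both ways, with 9 of 24 higher and 7 lower and a median log2 fold change of -0.05. Over all genes tested 21.8% were called higher and 3702 of 18569 lower. The largest changes were in Dysf (2.59), the membrane repair protein dysferlin, Gfap (2.31) and Ahnak (1.63), a giant scaffold held by S100A10 and annexin A2. Ahnak had 2158, 1943 and 1895 counts in the sham libraries, against 10969, 5742 and 4230 after I/R. Myh9, the non-muscle myosin bound by S100A4, rose by 1.38 and Cacybp by 0.87. Neuronal partners were among those that fell, such as Nefl (-1.30), Syt1 (-1.26) and the S100A1 target Ryr2 (-1.24). Fgf1, which leaves the cell together with S100A13, fell by 0.45, while S100a13 rose.

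Other EF-hand genes did not follow the S100 genes. Of 24 EF-hand calcium sensors outside the family 2 rose and 17 fell, with a median log2 fold change of -0.76. For comparison, 3702 of all 18569 genes tested were called lower and 21.8% higher. Kcnip2 (-2.02), Hpca (-1.77) and Calm3 (-1.48), all of them abundant in neurons, had the largest falls. Efhd2 (0.80) and Kcnip3 (0.32) were the 2 that rose. Beside this, 6 of 7 neuronal markers fell, with a median of -1.02, and the part of neuronal RNA in these falls was not tested.

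**Figure D5:**
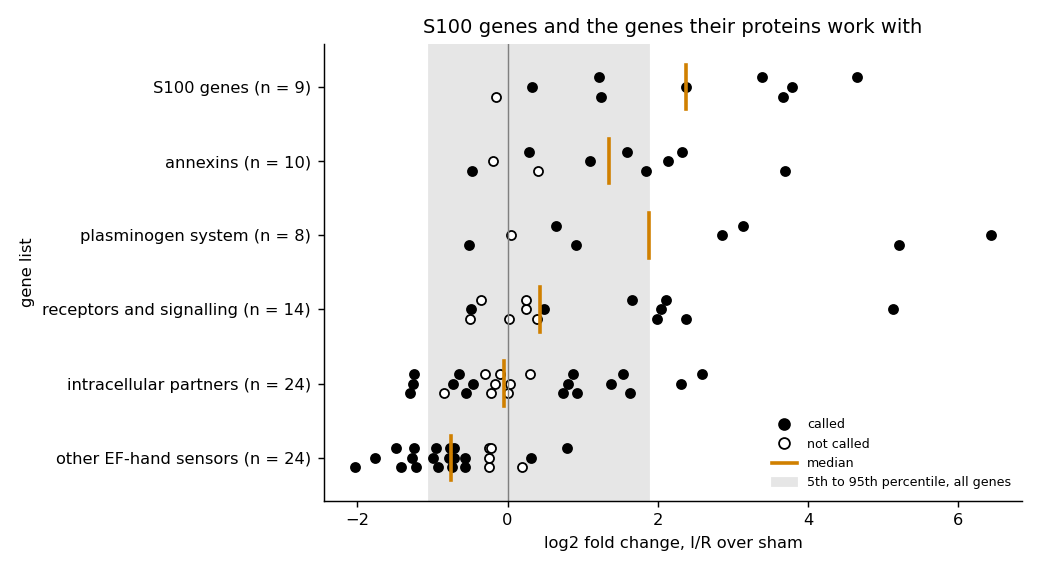
Log2 fold change of I/R over sham for each tested gene of 6 lists, with filled circles for called genes, an orange line at the median and a grey band from the 5th to the 95th percentile of all genes tested. The medians run from 2.38 for the S100 genes to -0.76 for EF-hand sensors outside the family, whose circles lie mostly left of 0.

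Markers of some cells that can carry S100a4, S100a6, S100a10 and S100a11 also differed between the groups, and others did not. The counts below stand against 41.8% of all genes tested called and 21.8% called higher. All 10 reactive astrocyte genes rose, with a median log2 fold change of 3.71, as given above. Of 10 monocyte and macrophage markers 8 rose and 0 fell, with a median log2 fold change of 2.17 and a summed level of 85.8 to 147 CPM in I/R against 13.4 to 17.3 CPM in sham. Msr1, a scavenger receptor, had 9, 3 and 1 counts in the sham libraries, against 2732, 1720 and 1485 after I/R. Msr1, Ccr2, Chil3 and Fcgr4 had enough counts to be tested only through the I/R libraries, so they could be called only higher. The summed level of endothelial markers was 335 to 501 CPM in I/R and 244.9 to 248.7 CPM in sham, with 5 of 6 higher and Slco1a4 lower. Fibroblast markers had 4 of 8 higher, with summed levels that overlapped, at 252 to 374 and 219 to 399 CPM. Microglial markers split, 3 higher and 4 lower of 9, and their sums overlapped at 261 to 355 and 266 to 298 CPM. Ependymal markers had 1 higher and 1 lower of 4, the single erythrocyte marker in the table, Alas2, was not called (log2 0.32), and 0 of 8 choroid plexus markers were called. The part of these cells in the S100 changes was not tested.

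The remaining S100 genes of the table had few counts. The 7 others were S100a2, S100a3, S100a5, S100a7a, S100a14, S100g and S100z, of which 0 could be tested and 2 (S100a5 and S100z) had 0 counts throughout. S100a7a had 7, 5 and 5 counts in the sham libraries, against 54, 6 and 23 after I/R. S100a3 had 3, 11 and 5 counts in sham against 42, 5 and 14 after I/R. S100a14 had 4, 0 and 0 counts in sham against 22, 4 and 2 after I/R. Each of these 3 had its highest count in I/R replicate 1, and in each the groups overlapped. Whether they differed between the groups was not tested at this depth.

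On chromosome 3 the 9 S100 genes lie over 3137 kb of the BALB/cJ assembly, with 7 of them in a dense block of 191 kb and S100a11 and S100a10 at the far end. Between the outermost genes lie 103 other genes, in a region known for the skin genes of the epidermal differentiation complex. Only 5 of these had enough counts to be tested, and 4 rose and 1 fell. Sprr1a, a cornified envelope gene, had 33, 21 and 21 counts after I/R and 0 in sham, so it could be tested only through the I/R libraries. Tchh, trichohyalin, whose protein begins with an S100-like domain, rose by 1.24 on the log2 scale, and Lor, loricrin, fell by 1.30. Over the whole chromosome, 265 of 980 tested genes rose and 161 fell. Of 18 tested genes in the 500 kb before the block 6 rose and 2 fell, near the 41.8% called among all genes tested.

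The genes nearest to an S100 gene were found by the distance of centred log2 CPM over the 6 libraries, a measure that includes the difference between the groups. For S100a8 these were Il19 (distance 0.930), Trib3, Cpa4, Csf3, the growth factor of neutrophils, and Ptgir. S100a9 was nearest to Lrrc25 (distance 1.37), Tnfsf9, Samd3, Clec7a and Cd300lf, and S100a8 was not among the 5. S100a10 had Usp18 (0.287), Rgs2, Anxa1, 1700047K16Rik and Ifit1 as its nearest genes, among them a pair of interferon-induced genes. S100b lay among genes with small changes, Cblb (0.0620), Alg9, Kmt2c, Arrb2 and Dcaf12, none of which was called.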

How the data were processed

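Hippocampal RNA of 3 I/R and 3 sham libraries was measured by RNA-seq, and titles of the samples gave groups and replicate numbers. By the study's methods, the authors aligned reads with TopHat and counted them per gene with HTSeq, and the deposited table holds raw counts. The deposited table also holds FPKM, which the authors computed from the counts, the library total and a length per gene that was constant over libraries (within 1%) but equalled the listed length for 37.5% of 19896 genes. The submitters' processing notes name Bowtie 0.12.2. The gene identifiers are those of Ensembl's BALB/cJ annotation, while the labels give C57BL/6. Whether counting used strand, and how it treated reads that match several places, is not stated in the sources used here. HTSeq in its usual settings drops reads on more than 1 gene or place, which lowers counts of overlapping or duplicated genes. The authors' own p-values were not used.

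Counts of 41386 genes (4 split lines rejoined) went into edgeR 4.0.16 (R 4.3.3): filterByExpr, TMM scaling, quasi-likelihood F-test without covariates, Benjamini-Hochberg adjustment over 18569 genes, and calls at an adjusted p under 0.05 with a fold change over 1.2. The SE was the log2 fold change divided by the square root of F. The fit was also run on simulated data with 200 changed genes, against 7756 called here. That run cannot show how scaling and calls behave with so many changes. A library with 3 counts or fewer was at the floor, which covers counting error only, whereas edgeR's intervals include the spread between libraries. Total counts were 37493042 to 44788547. Alternatives used DESeq2 1.42.0, limma 3.58.1 (voom), other scalings and filters, the replicate number as a block and each library left out. Pairing was judged by the correlation of same-numbered libraries' deviations from their group means. Promoters came from RefSeq on GRCm38.p6, in which 9 of 10 S100 genes had a window, and no coordinates were converted.

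Named were all S100 genes of the table, the 3 called genes of largest change in each pathway list with Anxa2, Ahnak, Ager and Tlr4, the highest markers of cell type lists, the neighbours of largest change and the 5 nearest genes of S100a8, S100a9, S100a10 and S100b. A gene that this rule names is not reported here. Other list genes were named after their values were seen. The members and lists were chosen with earlier results of these data known.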

Additional observations from a re-analysis of the deposited data

How the results depend on the processing

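S100a6, S100a8, S100a10, S100a11, S100a13 and S100a16 stayed called in the same direction under every alternative that could test them, 14 each and 13 for S100a8. S100a1 lost its call in 6 of 14 alternatives: without the count filter (log2 fold change 0.30), with the 4 libraries rich in Ttr, a choroid plexus gene, an alternative chosen after seeing the data (0.26), and in 4 of the 6 fits leaving out 1 library, over which it ranged from 0.25 to 0.39. S100a9 lost it in 2 of 13, without the count filter (3.75) and without sham replicate 2, with 2.61 to 4.43 over the fits leaving out 1 library. S100b had its sign turned by scaling to library size alone (0.10). That scaling also moved the median of all genes, from 0.03 to 0.28. What lay behind the difference between the scalings was not tested. Without the count filter S100a4 was tested and called (edgeR adjusted p = 0.0236). In that fit 7 of 10 S100 genes were called, against 7332 of all 28949 genes tested. With a minimum of 10 counts in every library, which removes S100a8 and S100a9 from the test, 6 of 7 were called. All genes had 7247 calls among 16421 tested in that fit. Calling at a fold over 2 left 7 S100 genes and 2760 genes in all, against 7756. Library size alone made 75.7% of all calls rises, against 52.3%. Same-numbered libraries of the groups had correlations of -0.097, 0.056 and -0.18, so the numbers were not taken to pair them; with the replicate block 6332 genes were called, 6254 of them shared with the fit without it, and 8 of 9 S100 genes. Shares of summed FPKM moved by more than 1 SD for 7 of 20 values when the listed gene length was used, where S100b passed S100a16 in sham and S100a10 came before S100a6 and S100a16 in I/R. None of 60 moved by more than 1 SD when 1 library was left out. With 3 libraries a group no mean can move that far, so this count says nothing about stability. Without I/R replicate 1 the I/R shares of S100a8 and S100a9 were 0.966% and 0.747%, against 1.71% and 1.37%. At 3 libraries a group no permutation p can be under 0.1.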
